A study of Canis lupus familiaris with 30 samples.

Results

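The transcriptomes of 5 canine follicular thyroid carcinomas (FTC) with a short variant in *TG* were compared with those of 16 FTC in which the study listed neither a short variant nor a fusion of *TG*. These 21 tumors were chosen by tumor name from the 30 thyroid carcinomas of the series. The 5 tumors with a short variant were TC1593, TC1744, TC2402, TC538 and TC627. The 9 tumors outside both groups were 3 FTC with a *TG* fusion, 5 medullary carcinomas and TC1088, which was left out by rule.

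*TG* encodes thyroglobulin, the large glycoprotein on which thyroid hormone is made. Thyroglobulin is folded in the endoplasmic reticulum of the follicular cell, secreted into the follicle lumen, iodinated there, and taken up again to be cut by lysosomal proteases that free the hormone. Inherited *TG* variants that hinder its folding are a known cause of goiter with protein retained in the endoplasmic reticulum, so the genes of folding, degradation and secretion were described beside *TG* itself.

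All tumors were primary tumors that arose in pet dogs, and total RNA of bulk frozen tissue was sequenced after removal of ribosomal RNA. Each tumor gave 1 library, and the sample labels name the tumors but give no variant, histologic pattern, age, treatment or sequencing batch. The study called short variants from exome reads of tumors with matched normal tissue and from RNA reads, and these calls set the groups. Some tumors of the series had RNA reads only, so the absence of a listed variant may not rest on the same reads in every tumor. The 5 tumors do not share 1 variant, and both groups carry other alterations that differ from tumor to tumor. In bulk tissue, fewer cells of a type and less RNA per cell cannot be told apart. The p-values measure the spread between single tumors of different dogs.

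The count on genes ranged from 12288945 to 28525485 in the short-variant tumors and from 17786560 to 36516349 in the unaltered tumors. Counts were divided by a median-of-ratios size factor, and a level is log2 of this normalized count plus 1. The follicular markers *TG*, *TSHR* and *PAX8* summed to between 255400 and 3993000 normalized counts in the short-variant tumors and between 25580 and 2469000 in the unaltered tumors. The sum of 3 parathyroid markers was between 7.06 and 43.0 in the short-variant tumors and reached 29390 in 1 unaltered tumor (median of the 16, 16.0). The sum of 9 C-cell markers was between 227 and 1714 in the short-variant tumors and between 209 and 9474 in the unaltered tumors.

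TC538 stood apart from the other 20 tumors before any comparison. Its size factor was 0.279, against 0.773 to 1.62 in the others, and 13515 genes reached 10 counts in it, against 15444 to 17170. Transcripts of the mitochondrial genome took 5.77% of its counts and at most 2.99% of the counts of another tumor. It had the highest normalized count of the 21 tumors at 4536 of the 17826 genes tested (25.4%) and the lowest at 4637 (26.0%). At 493 genes it exceeded every other tumor more than 4-fold, and at 848 genes it lay more than 4-fold below every other tumor, while the next highest numbers were 56 (TC1241) and 57 (TC627). Its 7 lymphocyte markers summed to 3492 normalized counts, under the lowest unaltered tumor (6562), and its 7 skeletal muscle markers to 480.4, also under the lowest unaltered tumor (1050). On longer marker lists, averaged on a log2 scale with every gene centred on its median of the 21 tumors, TC538 lay within the unaltered range, at -0.08 for 18 lymphocyte markers (-0.48 to 1.17 in the unaltered tumors) and at -0.85 for 16 muscle markers (-0.90 to 2.82). Most fold changes are therefore given with and without TC538.

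**Figure D1:**
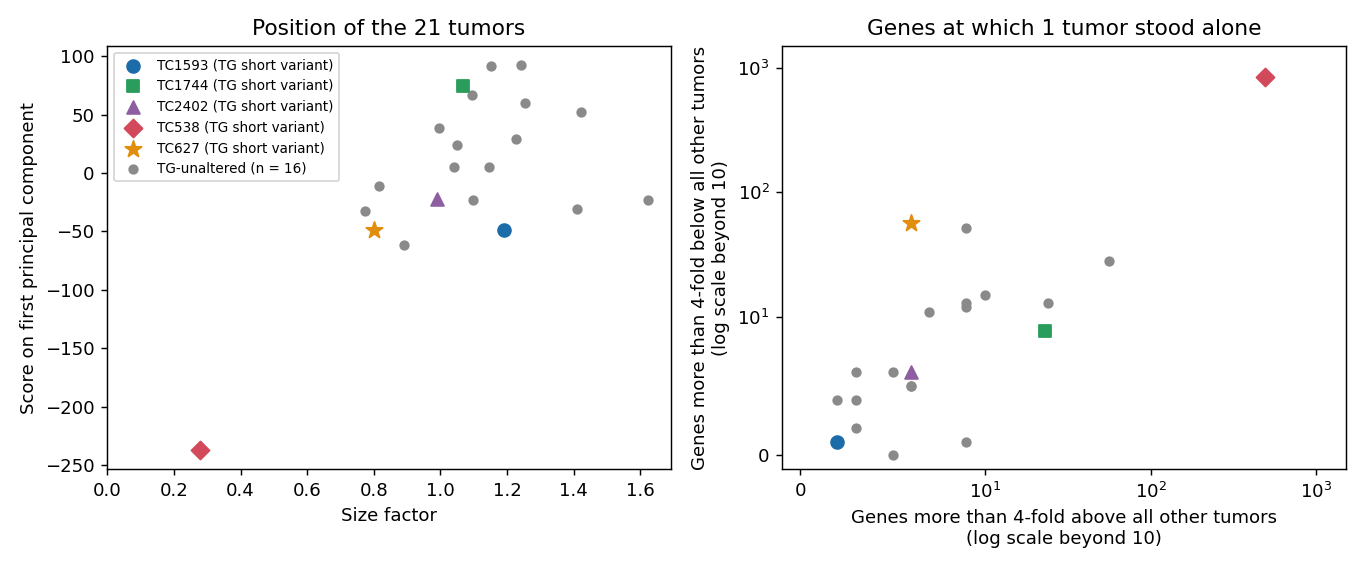
The left panel plots each tumor's score on the first principal component of 17826 genes against its size factor, and the right panel the number of genes at which it lay more than 4-fold below all other tumors against the number at which it lay more than 4-fold above them, on axes that are logarithmic beyond 10. TC538 lies at a score of -237 with a size factor of 0.279, while the other 20 tumors, the other 4 short-variant tumors among them, have scores between -61.5 and 92.5.

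The first question was whether tumors with a short variant of *TG* (ENSCAFG00000001128) hold more or less of its transcript. The normalized count was 346276 in TC1593, 896439 in TC1744, 242295 in TC2402, 798169 in TC538 and 3963361 in TC627. In the unaltered tumors it was lowest at 8188, had a median of 506653 and was highest at 2446323. TC627 held the most *TG* of the 21 tumors, while the other 4 lay within the range of the unaltered group and 2 of the 5 lay under its median. The 3 lowest tumors, TC1979, TC1241 and TC815, were all unaltered and had 8188, 8833 and 11286 normalized counts. The mean level was 19.52 ± 1.56 (SD, n = 5) with a short variant and 17.85 ± 2.68 (SD, n = 16) without, a difference of 1.67 that was not significant when all 20349 splits of the tumors were enumerated (exact permutation test, two-sided, p = 0.199). Without TC538 the difference was 1.65 (two-sided exact permutation test, p = 0.265). Scaled by the total count of each library in place of the size factor, the difference was 1.43 (two-sided exact permutation test, p = 0.274). The genome-wide edgeR quasi-likelihood test gave *TG* a log2 fold change of 1.05 (standard error, SE, 0.88, with a Benjamini-Hochberg adjusted p of 0.577), and without TC627 the fold change had the other sign (-0.12). *TG* took between 1.03% and 13.7% of a short-variant tumor's counts and between 0.0364% and 9.60% of an unaltered tumor's counts.

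None of the 14 genes described for hormone synthesis and iodide handling passed the edgeR test at an adjusted p below 0.05, a limit that 7 of all 17826 genes passed (0.0393%). Their median log2 fold change was 0.14, and 0.10 without TC538, beside -0.01 and -0.04 over all genes tested. Per tumor, TC627 lay at 1.28 and TC1744 at 0.81 for the mean of the list relative to each gene's median (log2), with TC627 above the highest unaltered tumor (1.00), and the other 3 lay between -0.80 and -0.62. *SLC5A5*, the sodium iodide symporter, had 2801, 70294, 7486, 1502 and 21385 normalized counts in TC1593, TC1744, TC2402, TC538 and TC627, against a range of 0.0 to 80492 and a median of 5749 without a variant. The symporter thus varied more within each group than between them (edgeR log2 fold change 0.54, SE 1.23, adjusted p = 0.850, with 0.84 without TC538 and -0.74 without TC1744). *SLC26A4*, which encodes the anion exchanger pendrin, had the largest negative estimate of the list, with 129, 45.0, 11.1, 71.7 and 419 normalized counts in the same order against 23.3 to 1289 (median 227). TC2402 lay under all unaltered tumors and the other 4 inside their range (edgeR log2 fold change -1.52, SE 0.92, adjusted p = 0.444, and -1.38 without TC538). The oxidase genes *DUOX1* and *DUOX2* and their maturation factors *DUOXA1* and *DUOXA2* had log2 fold changes of 0.32, 0.36, -0.32 and -0.12, and of 0.55, 0.60, -0.06 and 0.09 without TC538.

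The thyroid lineage list held 5 genes, and 0 passed the test. *TSHR*, the thyrotropin receptor, had 7551, 5493, 5598, 17656 and 13699 normalized counts in TC1593, TC1744, TC2402, TC538 and TC627, against 1750 to 13060 (median 5066) in the unaltered tumors. Scaled by size factor, all 5 lay above the unaltered median, and TC538 and TC627 above the unaltered range (edgeR log2 fold change 0.76, SE 0.37, adjusted p = 0.352, and 0.49 with an adjusted p of 0.974 without TC538). These placings depended on the scaling. Scaled by total count in place of the size factor, TC538 and TC627 both lay under unaltered TC2288 for *TSHR*, within the unaltered range. TC1744 then lay under the unaltered median. The transcription factor *PAX8* had between 7535 and 21349 normalized counts in 4 short-variant tumors and 1832 in TC538, against 8226 to 24926 in the unaltered tumors. TC538 was thus far under every other tumor for this gene, and the log2 fold change of -0.24 became 0.00 without it.

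**Figure D2:**
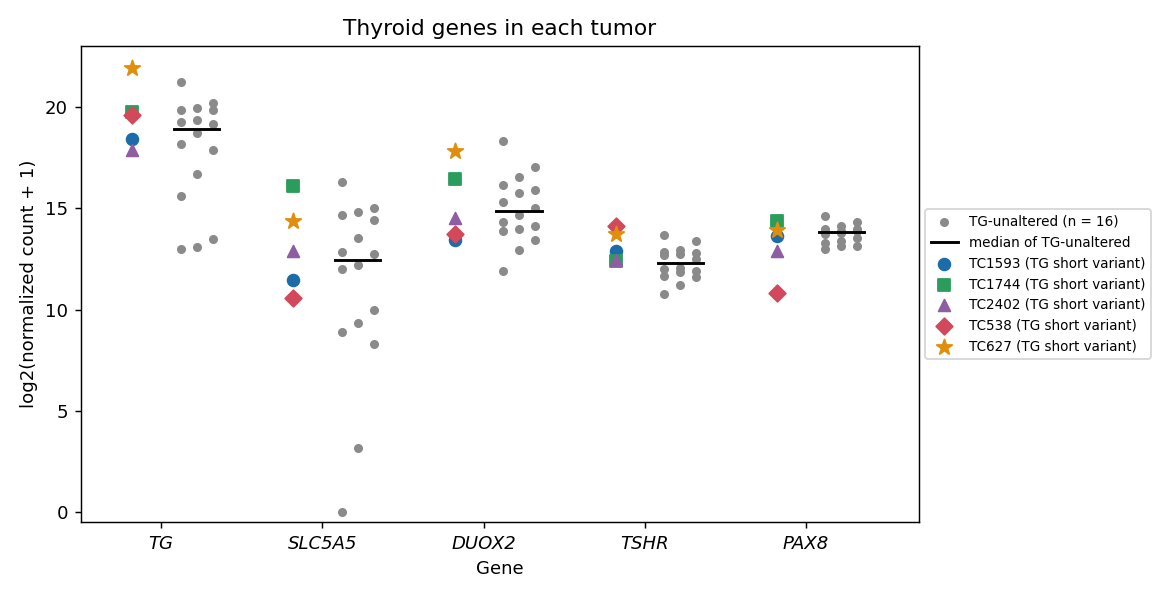
The level, log2 of the normalized count plus 1, of 5 thyroid genes is plotted for each short-variant tumor (coloured symbols) and each of the 16 unaltered tumors (grey points, with their median as a line). The groups overlap at every gene, TC627 is highest for *TG* at 21.9, and TC538 is lowest for *PAX8*.

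Thyroglobulin uptake and proteolysis was described by 14 genes, of which 0 passed the test (median log2 fold change 0.30, and 0.28 without TC538). TC1744 and TC2402 lay above all unaltered tumors for the mean of this list, at 1.13 and 0.71 on a log2 scale relative to each gene's median over the 21 tumors, while the unaltered tumors lay between -0.65 and 0.57. The other 3 short-variant tumors, at -0.26, -0.56 and -0.41, lay within the unaltered range. *CTSB*, the lysosomal cysteine protease cathepsin B, showed the same 2 tumors high to unequal extent, with 7219 normalized counts in TC1593, 88596 in TC1744, 39471 in TC2402, 10845 in TC538 and 10833 in TC627. The unaltered tumors had 10192 to 46425 (median 22181), so that TC1744 lay above and TC1593 below all of them (edgeR log2 fold change 0.34, SE 0.42, adjusted p = 0.707, with 0.55 without TC538 and -0.52 without TC1744).

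The endoplasmic reticulum folding list held 23 tested genes, 19 of them with a positive log2 fold change, and 0 passed the test in either direction. The median log2 fold change was 0.29, and 0.34 without TC538 with again 19 positive, whereas 8802 of all 17826 genes were positive. Per tumor, the mean of the list was -0.28 in TC1593, 0.15 in TC1744, 0.31 in TC2402, -0.43 in TC538 and 0.98 in TC627, against -0.59 to 0.63 in the unaltered tumors. Only TC627, the tumor with the most *TG*, lay above the unaltered range. *HSPA5*, the main chaperone of the endoplasmic reticulum, had 20340, 18419, 27429, 17061 and 90554 normalized counts in TC1593, TC1744, TC2402, TC538 and TC627, against 11588 to 54641 (median 22717). TC627 was again the highest of the 21 tumors, and 3 of the other 4 lay under the unaltered median (edgeR log2 fold change 0.46, SE 0.40, adjusted p = 0.590, and 0.60 without TC538). *HSP90B1*, a second chaperone of this compartment, had 24172, 17773, 46800, 33355 and 74266 in the same order, against 6141 to 49819 (median 16402). All 5 lay above the unaltered median and TC627 above the range (edgeR log2 fold change 0.88, SE 0.43, adjusted p = 0.351, and 0.92 without TC538). Scaled by total count in place of the size factor, TC1744 lay just under the unaltered median for *HSP90B1*.

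*DNAJB9*, a cochaperone of *HSPA5*, had the smallest p of the list. Its normalized count was 468 in TC1593, 353 in TC1744, 736 in TC2402, 3119 in TC538 and 1773 in TC627, against 183 to 764 (median 468) in the unaltered tumors. TC538 and TC627 lay above the unaltered range and the other 3 within it, and the log2 fold change of 1.41 (SE 0.35, edgeR adjusted p = 0.0804) was 0.84 without TC538 (adjusted p = 0.974). *ERO1B*, an oxidase that serves disulfide formation, rested more on TC538, which had 26371 normalized counts against at most 10761 in the unaltered tumors. Its log2 fold change was 1.25 (edgeR adjusted p = 0.175) with TC538 and 0.42 (adjusted p = 0.974) without.

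Of 19 genes of the unfolded protein response, 0 passed the test and the median log2 fold change was -0.02 (0.12 without TC538), with 9 positive (12 without TC538). The mean of the list was -1.13 in TC538, under the lowest unaltered tumor (-0.35). In the other 4 it lay between -0.30 and 0.40, within the unaltered range. *XBP1*, the transcription factor activated by splicing when unfolded protein builds up, had 2157 normalized counts in TC1593, 3303 in TC1744, 2539 in TC2402, 4786 in TC538 and 6282 in TC627. The unaltered tumors had 1084 to 4061 *XBP1* normalized counts (median 1928). All 5 short-variant tumors lay above that median and 2 above the range, yet the log2 fold change of 0.86 (SE 0.27) did not pass the edgeR test (adjusted p = 0.161, and 0.974 without TC538). The placing of TC538 above the range rests on its low size factor. Scaled by total count, TC538 lay within the unaltered range for *XBP1*, under TC67, TC2288 and TC2011. TC627 stayed above the range, and all 5 stayed above the unaltered median. *ATF4* and *DDIT3*, of the branch that lowers translation, had log2 fold changes of 0.02 and -0.28 (0.20 and -0.10 without TC538). The 17 genes of endoplasmic reticulum-associated degradation had a median of 0.26 (0.19 without TC538) with 0 passing. Of these, *ERLEC1*, a lectin that sorts misfolded glycoproteins, had 2574, 1652, 4343, 3908 and 3982 normalized counts in TC1593, TC1744, TC2402, TC538 and TC627, against 813 to 3001 (median 1999). Thus 3 of the 5 lay above all unaltered tumors and TC1744 under their median (edgeR log2 fold change 0.74, SE 0.27, adjusted p = 0.215, and 0.68 with an adjusted p of 0.974 without TC538). For TC538 the *ERLEC1* placing again rests on its size factor, and scaled by total count it lay within the unaltered range. Secretory pathway transport, with 31 genes and 0 passing, went from a median of 0.30 to 0.05 without TC538. *SEC61G*, a subunit of the translocon, was an example, with 44490 normalized counts in TC538 and between 724 and 3820 in the other 4, against 970.1 to 4436 in the unaltered tumors. Its log2 fold change was 2.08 with TC538 and -0.08 without.

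The second question was which genes of the whole transcriptome differed. Over 17826 genes, 6 were higher (0.0337%) and 1 was lower (0.00561%) in the short-variant tumors at a Benjamini-Hochberg adjusted p below 0.05 in the edgeR test. At an unadjusted p below 0.05, 1952 genes (11%) were higher and 606 (3.4%) lower. TC538 had the highest value of the 21 tumors at 1689 of those 1952 and the lowest at 280 of those 606 (46.2%). Without TC538, 0 of 17757 genes (0%) passed the edgeR test, and 360 (2.03%) were higher and 379 (2.13%) lower at an unadjusted p below 0.05. DESeq2 called 186 higher and 72 lower of 17826 genes over all 21 tumors. TC538 had the highest value of the 21 tumors at 163 of these 186 and the lowest at 17 of these 72. Without TC538, DESeq2 called 2 higher and 7 lower of 17757 genes. With sample weights, limma voom called 0 with and without TC538. At an unadjusted p below 0.05, voom had 990 higher and 660 lower genes over all tumors, and 626 and 585 without TC538.

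All 6 genes called higher had their highest count in TC538, between 20.6 and 38.6 times the highest unaltered tumor. *C10orf67*, an uncharacterized gene, had 53.8 normalized counts in TC1593, 28.1 in TC1744, 36.3 in TC2402, 3072 in TC538 and 65.0 in TC627, against 1.2 to 79.6 (median 10.2) in the unaltered tumors. The 4 other short-variant tumors lay within the unaltered range but above its median (edgeR log2 fold change 5.24, SE 0.82, adjusted p = 0.0118). *TLCD4*, which encodes a membrane protein with a TLC domain, had 2485, 2126, 3255, 101473 and 12976 in the same order, against 598 to 3757 (median 1379). Here TC627 lay above the unaltered range as well (edgeR log2 fold change 3.69, SE 0.58, adjusted p = 0.0118). *FANCL*, the ubiquitin ligase of the Fanconi anemia DNA repair pathway, had 939.9, 206, 547, 12361 and 1011, against 202 to 599 (median 381). TC1593 and TC627 also lay above the unaltered range, and TC1744 near its lower end (edgeR log2 fold change 2.79, SE 0.48, adjusted p = 0.0219). The other 3 were *TCHHL1*, *ADAM32* and ENSCAFG00000013321, with log2 fold changes of 3.81, 4.39 and 3.07. Without TC538 the log2 fold changes of the 6 genes lay between 0.24 and 1.63 and each adjusted p was 0.974 in the edgeR test.

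The same held for most of the other genes with small p on the higher side. *CNOT6L*, a deadenylase subunit that shortens mRNA tails, had a log2 fold change of 2.49 (edgeR adjusted p = 0.0530) and 0.58 without TC538. *BBS9*, a subunit of the complex that sorts cargo to cilia, went from 1.96 to 0.71, and *RRM2B*, a ribonucleotide reductase subunit, from 1.99 to 0.86. *SNAPC1*, *BTF3L4*, *LRRIQ3*, *C8H14orf28* and *PPA2* went from between 1.43 and 3.26 to between 0.45 and 0.67. *OPN3* (an opsin) and *KLHL8* kept more of theirs, at 1.16 after 2.15 and at 1.19 after 1.63. In *KLHL8*, 3 tumors lay above the unaltered maximum of 1035, with 1220 in TC1593, 3990.1 in TC538 and 2802 in TC627.

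**Figure D3:**
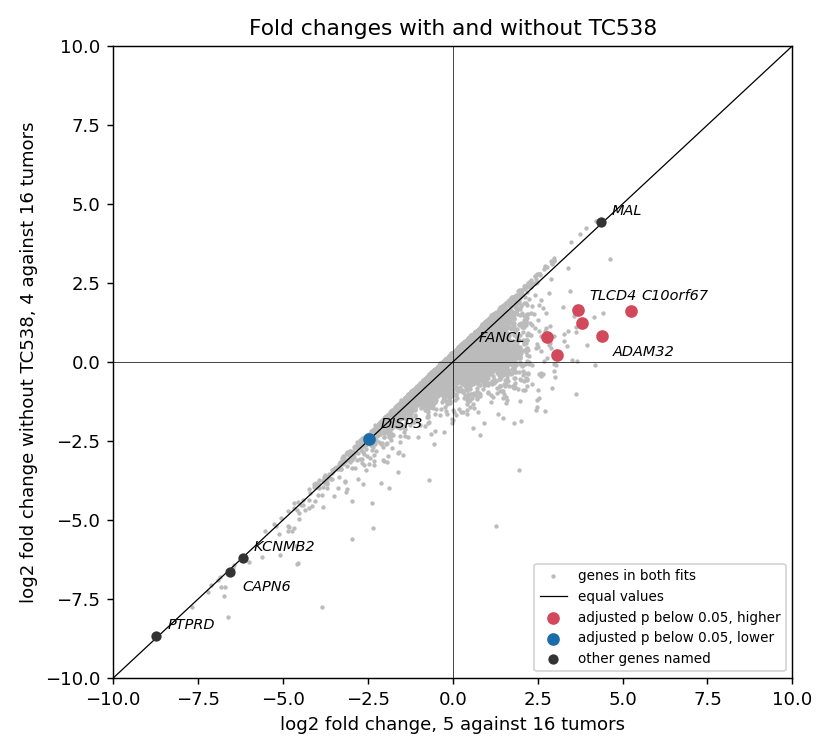
The log2 fold change of each gene in 4 short-variant against 16 unaltered tumors, without TC538, is plotted against the value with all 5 tumors, with the line of equal values. The 6 genes called higher (red) lie between 2.79 and 5.24 on the x axis and between 0.24 and 1.63 on the y axis, while *DISP3* (blue), *PTPRD*, *KCNMB2*, *CAPN6* and *MAL* lie near the line.

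*DISP3* (ENSCAFG00000016596), a membrane protein of the dispatched family with a sterol-sensing domain, was the gene called lower. Its normalized count was 40.3 in TC1593, 113 in TC1744, 31.3 in TC2402, 60.9 in TC538 and 48.7 in TC627. In the unaltered tumors it was lowest at 104, had a median of 320.2 and was highest at 564. Of the 5 short-variant tumors, 4 lay under every unaltered tumor, and TC1744 lay above only 1 of the 16. The log2 fold change was -2.45 (SE 0.45, edgeR adjusted p = 0.0344) and -2.44 without TC538 (adjusted p = 0.495 with edgeR, 0.000112 with DESeq2). Over all alternatives the adjusted p of *DISP3* ranged from 6.12e-06 to 0.960, and the call was absent when any 1 of 6 unaltered tumors was left out.

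*PTPRD* (ENSCAFG00000001460), a receptor-type protein tyrosine phosphatase, had the largest fold difference among the lower genes. TC1593, TC1744, TC2402, TC538 and TC627 had 0.8, 16.9, 1.0, 3.6 and 2.5 normalized counts. The unaltered tumors ranged from 1.8 to 12785 with a median of 1289. All 5 short-variant tumors were thus close to 0, 14 of the 16 unaltered tumors lay above them all, and 2 unaltered tumors were as low. The log2 fold change was -8.72 (SE 1.83) and missed the limit in edgeR (adjusted p = 0.0739), while DESeq2 without TC538 gave -8.69 (adjusted p = 2.21e-08).

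*NEIL1*, a glycosylase that starts base excision repair of oxidized bases, had 119, 197, 83.8, 14.3 and 88.7 normalized counts in TC1593, TC1744, TC2402, TC538 and TC627, against 170.2 to 2341 (median 491) in the unaltered tumors. Again 4 of the 5 lay under all unaltered tumors, and TC1744 lay above 2 of them (edgeR log2 fold change -2.68, SE 0.60, adjusted p = 0.0739, and -2.46 with an adjusted p of 0.738 without TC538). DESeq2 called *NEIL1* without TC538 (log2 fold change -2.44, adjusted p = 0.00868). *BTBD11*, which encodes a protein with ankyrin repeats and a BTB domain, had 26.0, 13.1, 35.3, 14.3 and 25.0, against 9.9 to 460.5 (median 179.8). All 5 lay under the median, and 3 unaltered tumors lay within their range or below it (edgeR log2 fold change -2.95, SE 0.72, adjusted p = 0.0783, and -2.86 with an adjusted p of 0.974 without TC538). DESeq2 without TC538 called this gene too (log2 fold change -2.85, adjusted p = 0.0185).

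For 3 other genes the unaltered tumors spread widely. *KCNMB2*, an auxiliary subunit of the calcium-activated potassium channel, had 5.9, 34.7, 0.0, 10.8 and 0.0 normalized counts in TC1593, TC1744, TC2402, TC538 and TC627, against 2.9 to 2562 (median 271.5). *CAPN6*, a calpain that lacks protease activity, had 11.8, 3.7, 11.1, 10.8 and 1.2, against 2.6 to 4535 (median 133). *ADAMTS17*, a secreted metalloprotease, had 34.4, 94.6, 71.6, 64.5 and 6.2, against 44.8 to 4380.2 (median 236). In each gene all 5 short-variant tumors lay under the unaltered median, while 4, 4 and 3 of the 16 unaltered tumors lay below the highest of the 5. Their log2 fold changes were -6.19, -6.56 and -3.92 with edgeR adjusted p of 0.111, 0.119 and 0.119, and DESeq2 without TC538 called each of them (adjusted p = 0.00868, 0.00209 and 0.0182).

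The other genes with small p on the lower side had smaller fold changes and adjusted p between 0.0958 and 0.134 in edgeR. They were the phosphatase gene *PTPRS* (-2.04), the spectrin gene *SPTBN5* (-1.68), the diacylglycerol kinase gene *DGKD* (-1.28), *SIPA1L2* (-1.63) and *AGAP1* (-1.22), which encode GTPase-activating proteins, *NKAPL* (-1.35), *INSYN1* (-2.66) and the T-type calcium channel gene *CACNA1H* (-2.18). In all 8 the 5 short-variant tumors lay under the unaltered median, and the log2 fold change without TC538 lay between -2.42 and -1.12. The lower genes named up to here were chosen by small p and by the same sign without any 1 short-variant tumor. Their placing under the median and their sign without TC538 follow in part from that choice and are no separate support. The groups did not overlap at 0 genes on the higher side and at 1 gene on the lower side (0.00561%), ENSCAFG00000020538, with 0.0 to 2.5 normalized counts in the short-variant tumors against 4.0 to 24.7. Without TC538 there were 3 such genes on the lower side (0.0169%), this one, *SHISA6* and ENSCAFG00000021301, which were named after their values were seen. *SHISA6* had at most 0.9 normalized counts in the 4 tumors and 10.8 in TC538, against 1.1 to 1919 (median 5.1), and ENSCAFG00000021301 had 83.4 to 107 in the 4 tumors and 1667 in TC538, against 109 to 652.

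On the higher side, the fold change of *MAL* rested more on TC1744 than on TC538. *MAL*, a proteolipid of apical membrane transport in epithelia and of T cells, had 68.0, 5434, 129, 1180 and 414 normalized counts in TC1593, TC1744, TC2402, TC538 and TC627. The unaltered tumors had 4.8 to 503 *MAL* normalized counts (median 31.8). TC1744 and TC538 lay above all unaltered tumors and the other 3 above their median. The log2 fold change was 4.36 (SE 0.87, edgeR adjusted p = 0.0638) and 4.44 without TC538 (adjusted p = 0.495 with edgeR, 0.0182 with DESeq2). Without TC1744 the *MAL* log2 fold change was 2.60 (edgeR adjusted p = 0.0731), and without TC538 and TC1744 it was 1.54 (edgeR adjusted p = 0.538). *LTF*, the iron-binding protein lactoferrin, was the other gene that DESeq2 called higher without TC538 (log2 fold change 3.42, adjusted p = 0.0270). Its 207, 3328, 770.0, 4470.5 and 18540 normalized counts lay within the unaltered range of 52.2 to 42502 (median 369).

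**Figure D4:**
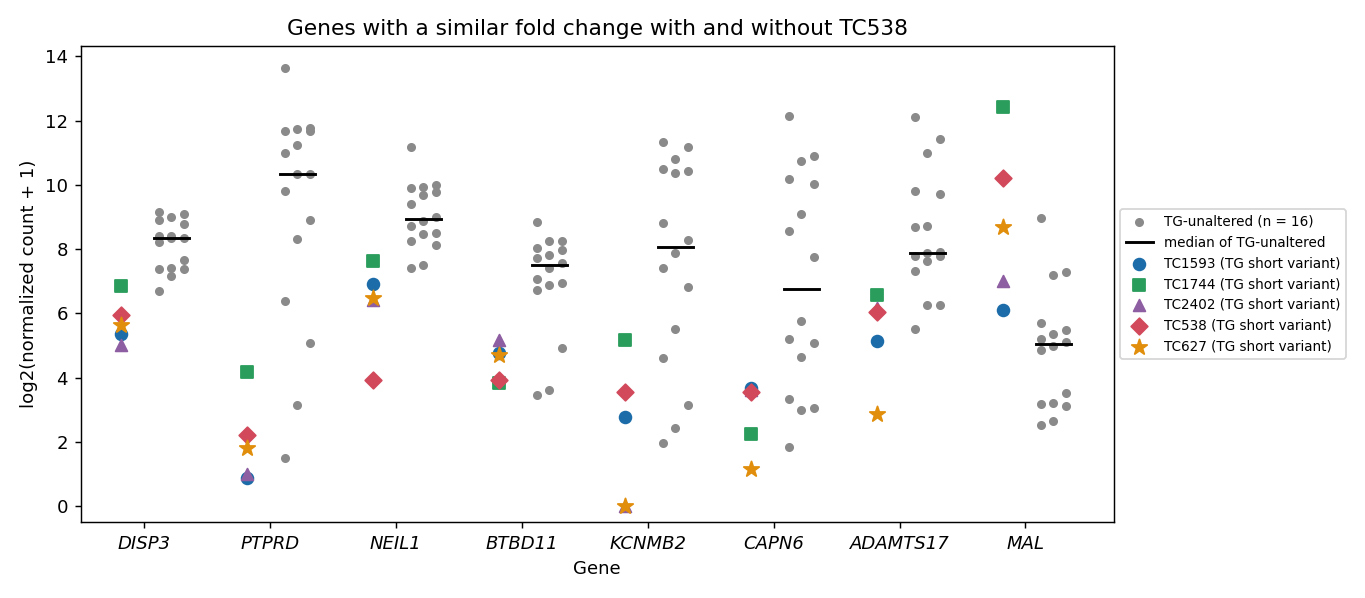
The level, log2 of the normalized count plus 1, of 7 lower genes and *MAL* is plotted for each short-variant tumor (coloured symbols) and the 16 unaltered tumors (grey points, with their median as a line). For *DISP3* and *NEIL1* only TC1744 reaches the unaltered points, and for *PTPRD* the 5 tumors lie with the 2 lowest of 16 unaltered points, the rest of which extend to 12785 normalized counts.

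None of the 24 gene lists held a gene that passed the edgeR test in either direction, with or without TC538. Among lists of cell behaviour, the MAPK output list (10 genes) had a median log2 fold change of -0.40 (-0.31 without TC538). Its mean per tumor was -1.54 in TC538 and -1.59 in TC627, under the lowest unaltered tumor (-1.31), and 0.03, 0.66 and -0.25 in TC1593, TC1744 and TC2402, within the unaltered range. *EPHA4*, a receptor kinase on that list, had 1632, 1148, 823, 516 and 235 normalized counts in TC1593, TC1744, TC2402, TC538 and TC627, against 443 to 5950.3 (median 2064). All 5 lay under the median (edgeR log2 fold change -1.58, SE 0.60, adjusted p = 0.228, and -1.46 without TC538). *DUSP4*, an ERK phosphatase, had a log2 fold change of -1.23 (SE 0.50, edgeR adjusted p = 0.262, and -1.31 without TC538), while *DUSP6* had -0.38 and *CCND1*, cyclin D1, 0.19 (-0.26 and 0.42 without TC538). The 36 cell cycle genes had a median of -0.28 (-0.31 without TC538), with 8 positive, and the 41 DNA repair genes one of 0.04 (-0.06). The 31 genes of glycolysis and hypoxia response had a median of -0.01 (-0.04 without TC538). Per tumor, TC627 lay at -1.01, under all unaltered tumors (-0.54 to 0.49), and TC1744 at 0.52, just above them. The 37 respiratory chain genes had a median of -0.24 (-0.18 without TC538).

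Lists of immune and stromal cells had negative medians except for macrophage and neutrophil markers (0.10, and 0.04 without TC538). The 25 genes of interferon response and antigen presentation had a median log2 fold change of -0.65 (-0.57 without TC538), with 5 positive. *OAS2*, an interferon-induced RNA sensor, had 859, 797, 631, 384 and 359 normalized counts in TC1593, TC1744, TC2402, TC538 and TC627, against 389 to 4862 (median 1196). All 5 lay under the median (edgeR log2 fold change -1.12, SE 0.43, adjusted p = 0.239, and -1.02 without TC538). The 18 lymphocyte markers had a median of -0.22 (-0.18). Their mean list level was nevertheless similar, at 0.03 with a short variant and 0.01 without, with unaltered TC815 highest at 1.17. The 19 endothelial markers had a median of -0.61 (-0.45) with 0 positive, but TC1744 lay at 1.06, TC538 at -2.10 and the unaltered tumors between -1.20 and 1.59. The 25 fibroblast and collagen genes had a median of -0.47 (-0.40), and TC1744 at 1.21 again lay apart from the other 4, which lay between -0.95 and -0.44. Among the remaining lists, the medians with and without TC538 were -0.25 and -0.27 for deiodinases, hormone receptors and transport (9 genes), -0.50 and -0.87 for C-cell markers (6), -0.13 and 0.06 for skeletal muscle (16), -0.70 and -0.74 for adipocytes (5), and -0.47 and -0.25 for immediate early genes (16). For the immediate early genes, which respond within minutes to growth factors and tissue handling, the mean per tumor was -1.12 in TC1593, -1.77 in TC538 and -1.04 in TC627, under the lowest unaltered tumor (-0.72), and 0.69 and 0.63 in TC1744 and TC2402, within the unaltered range. The parathyroid and erythroid lists had 1 tested gene each, at -2.29 and 0.59 (-2.49 and 0.71 without TC538). The parathyroid gene was high in unaltered TC2288 (5.48), TC1979 (4.99) and TC22 (2.70). Its mean list level was 0.15 with a short variant and 0.29 without (unaltered median -0.42). For C-cell markers these values were 0.02 and 0.12 (unaltered median 0.01), with TC22 highest at 3.56.

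**Figure D5:**
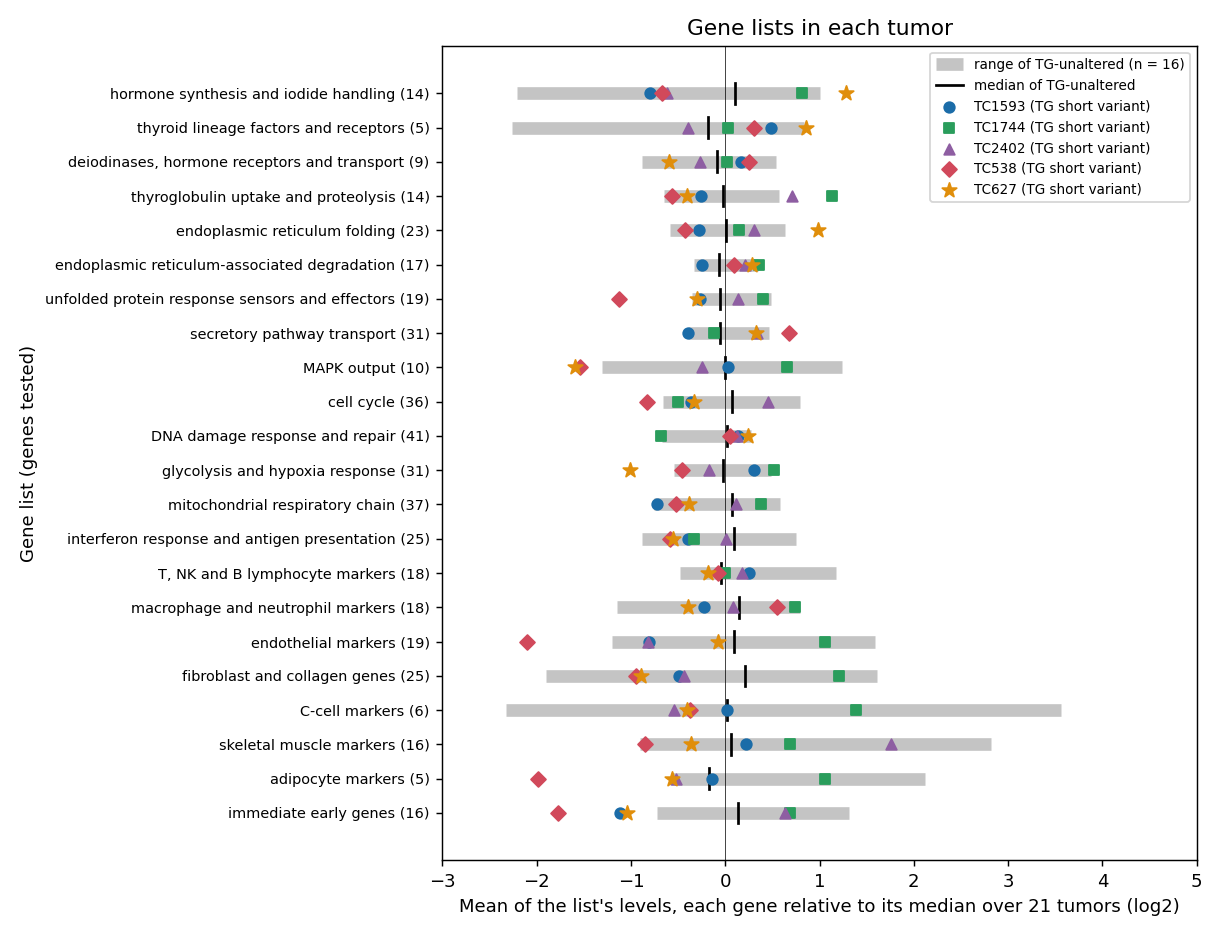
For each list with at least 5 tested genes (number in brackets), the mean level relative to each gene's median over the 21 tumors is plotted on a log2 scale, as symbols for the short-variant tumors and as a grey bar for the range of the 16 unaltered tumors, with their median as a line. The 5 short-variant tumors spread over most lists rather than together, with TC627 above the bar for endoplasmic reticulum folding (0.98 against 0.63), TC1744 and TC2402 above it for uptake and proteolysis, and TC538 below it for endothelial markers (-2.10 against -1.20).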

How the data were processed

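Gene counts were deposited by the authors, not normalized, in 1 table of 30424 Ensembl genes (15780 with a symbol) and 30 tumors, with 0 columns of no sample. Total RNA libraries depleted of ribosomal RNA were sequenced as paired-end reads, which the authors mapped to CanFam 3.1 with STAR and its gene counting. The strand setting is not given in the sources used here, so values of overlapping genes on opposite strands are uncertain, and reads carried no molecular identifiers.

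Groups follow the tumor names of the study's variant calls. The members and gene lists were chosen with earlier results of these data known. The 17826 genes that reached 10 counts in 5 or more of the 21 tumors were tested with edgeR 4.0.16 (R 4.3.3; TMM normalization, quasi-likelihood test, Benjamini-Hochberg adjustment), with TC538 included as the main comparison. The standard error is the log2 fold change divided by the root of its F statistic. Size factors used the 15611 genes counted in each of the 30 tumors, and levels used a pseudocount of 1. The *TG* level was compared with a two-sided exact permutation test, whose smallest p is 4.91e-05. Named genes were *TG*, the 15 higher and 15 lower genes with the smallest p among those with a symbol, a median of at least 50 normalized counts in the higher group and the same sign without any 1 short-variant tumor, the 5 called genes of largest fold in each direction, and genes of the lists when a list is described; others were named after their values were seen. Of named genes outside the lists there were 32. Alternatives were DESeq2 1.42.0, limma 3.58.1 (voom with sample weights), other scalings and filters, a log2 fold change limit of 2, and leaving out tumors. DESeq2 and voom without TC538, leaving out TC538 with a further tumor, and scaling by the total count were chosen after seeing the data. The edgeR step was first tested on simulated counts in which the changed genes were known. Python 3.11.15 with numpy 2.4.6, scipy 1.17.1, pandas 2.3.3 and matplotlib 3.10.9 was used for the rest. Some genes are not reported here, and variant alleles, other alterations and clinical data were not used.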

Additional observations from a re-analysis of the deposited data

Results flagged for a closer look

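Of 59 values examined over the 5 short-variant tumors (levels of named genes, list means and library measures), 6 had 1 tumor farther from the rest than Dixon's 95% limit for 5 samples (0.710), which chance passes in about 1 in 20 groups. In 3 of them the tumor was TC538: its *C10orf67* level was 11.59, its *BTF3L4* level 12.97, and transcripts of the mitochondrial genome took 5.77% of its counts. In the other 3 it was TC1744, whose mean list level was -0.68 for DNA damage response and repair, 1.21 for fibroblast and collagen genes and 1.39 for C-cell markers. The C-cell markers of TC1744 summed to 1714 normalized counts, within the unaltered range of 209 to 9474, and its fibroblast markers to 62070, within 4874 to 91610. TC1744 lay just under the lowest unaltered tumor (-0.67) for the repair list.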

How the results depend on the processing

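The number of genes called higher was 6 and the number called lower 1 with edgeR over all 21 tumors. With DESeq2 they were 186 and 72 (4 of the 7 genes shared), with limma voom 0 and 0 (990 and 660 at an unadjusted p below 0.05), with DESeq2's size factors in edgeR 77 and 3, without a count filter 38 and 2, and with 10 counts in 10 tumors 8 and 1. Without TC538 they were 0 and 0 with edgeR and voom and 2 and 7 with DESeq2, and leaving out any 1 further short-variant tumor kept both at 0. Leaving out 1 short-variant tumor moved the numbers to between 0 and 847 higher and between 0 and 120 lower, with the largest numbers without TC1744, where TC538 was the highest of the 21 tumors at 794 of the 847 genes. Without TC1593, TC2402 or TC627 there were 98, 121 and 99 higher. Leaving out 1 unaltered tumor gave 5 to 13 higher and 0 to 2 lower. The *TG* difference stayed positive and outside the threshold under every scaling and pseudocount tried and without any 1 short-variant tumor (1.07 to 2.08, two-sided exact permutation p from 0.124 to 0.516). Its edgeR log2 fold change of 1.05 lay between -0.12 and 1.39 when 1 tumor was left out, and it reversed to -0.12 without TC627 and to -0.27 without TC538 and TC627. Of 1084 further values of 32 named genes, 918 kept their direction and side of the threshold, 111 passed it newly and 53 lost it. No paired analysis was possible because the tumors came from different dogs and each gave 1 library. The causes were not tested. With 5 tumors in 1 group, a gene missing the threshold is not shown to be equal, and counts under 10 normalized, as for *PTPRD*, *KCNMB2* and *CAPN6*, are near the limit of 3 counts that a count of 0 allows. In TC538, with its size factor of 0.279, somewhat larger values also stand for only a few reads. These are 10.8 normalized counts for *KCNMB2*, *CAPN6* and *SHISA6*, and 14.3 for *NEIL1* and *BTBD11*.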

Other observations

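*PTGR1* and *NQO1*, reductases of the antioxidant response that were chosen after their values were seen, were high in TC1744. *PTGR1* had 39123 normalized counts in TC1744 and 1033, 2029, 975 and 2719 in TC1593, TC2402, TC538 and TC627, against 393 to 4084 (median 1054) in the unaltered tumors. *NQO1* had 21662 in TC1744, 3524 in TC538 and 577, 310 and 2109 in TC1593, TC2402 and TC627, against 165 to 3523 (median 754). *SLC7A11*, the cystine transporter, had 1358 in TC1744 and 315 in TC538, both above the unaltered maximum of 281.5. The placing of TC538 rests on its low size factor, and scaled by total count it lay under the highest unaltered tumor. *TXNRD1*, thioredoxin reductase, had 10666 in TC1744 against at most 5540.2. The glutamate-cysteine ligase gene *GCLC* did not follow, with 10243 in TC1744 and an unaltered range of 1449 to 113016. Of these genes, the edgeR log2 fold change was 2.71 for *PTGR1* (SE 0.61, adjusted p = 0.0739) and 2.58 for *NQO1* (SE 0.62, adjusted p = 0.0757). Both rested on TC1744, without which the edgeR log2 fold changes were 0.31 (SE 0.50, adjusted p = 0.706) and 0.77 (SE 0.57, adjusted p = 0.377). Without TC538 they were 3.02 and 2.74.

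Several genes were high in a single short-variant tumor and were also chosen after their values were seen. *CNMD*, a cartilage glycoprotein, had 1144 normalized counts in TC2402 and at most 85.4 in any unaltered tumor. *SFRP5*, a secreted inhibitor of Wnt signaling, had 1287 in TC627 and at most 274 in the unaltered tumors. *CDH15*, a cadherin of muscle cells, had 751 in TC1744 and at most 59.4, and *ATP1A4*, a sodium pump subunit, had 5469 in TC1744 and at most 586. The 9 tumors outside both groups had between 12 and 6595771 normalized counts of *TG*, with a median of 4681.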
